A study of Mus musculus with 6 samples.

Results

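Collagen VI is a beaded-filament collagen that surrounds muscle fibers. The genes followed here were 4 that encode its chains (*Col6a1*, *Col6a2*, *Col6a3* and *Col6a6*) and 2 that encode the anthrax-toxin receptors (*Antxr1* and *Antxr2*). They were taken by symbol from the 16180 genes of the deposited normalized table and joined to the raw counts by Ensembl identifier, and all 6 were found and passed the filter on low counts. The soleus, a slow-twitch-rich calf muscle, was taken at 8 weeks of age from 3 heterozygous mice (HET) that carry 1 *Mustn1* KO-first allele and from 3 wild-type mice (WT), which the study describes as littermates. All 6 mice were C57BL6/N. The KO-first allele is a gene trap: an inserted lacZ reporter cassette takes over the transcript, in all tissues and not in muscle alone, and the insertion also carries a neomycin selection gene. Polyadenylated RNA was sequenced with 1 library per mouse, and each mouse is 1 replicate. The comparison asked how the collagen VI system of young soleus differed between the genotypes.

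The α1 and α2 chains join an α3-type chain, for which α6 is one of the alternatives, to form a monomer that is assembled further inside the cell, secreted and built into microfibrils. In muscle these chains come mostly from interstitial fibroblasts, and mutations of the genes for α1, α2 and α3 cause Ullrich and Bethlem muscle diseases. *Antxr1* and *Antxr2* encode surface receptors with a von Willebrand factor A domain through which they hold matrix ligands, collagen VI among them, and loss of *ANTXR2* in people causes hyaline fibromatosis, in which collagen VI accumulates.

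The sequences that define both kinds of member are shown first, because they explain which proteins the read counts stand for. They are mouse coding sequences of build GRCm38 from the GENCODE M21 annotation, 5′ to 3′, each read across 1 exon junction, so that the coordinates include an intron. For the chains the first 60 bases of the longest unbroken run of Gly-X-Y triplets are given, in which glycine opens each triplet, with all glycine codons in capitals.
Col6a1 (chr10:76719653-76720996, minus strand, exons 8 and 9): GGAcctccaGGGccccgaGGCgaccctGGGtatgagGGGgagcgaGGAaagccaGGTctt
Col6a2 (chr10:76611978-76613290, minus strand, exons 5 and 6): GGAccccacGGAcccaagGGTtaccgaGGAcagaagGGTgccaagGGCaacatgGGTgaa
Col6a3 (chr1:90791954-90792445, minus strand, exons 19 and 20): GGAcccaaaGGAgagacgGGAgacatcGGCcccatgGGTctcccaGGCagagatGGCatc
Col6a6 (chr9:105760090-105761468, minus strand, exons 12 and 13): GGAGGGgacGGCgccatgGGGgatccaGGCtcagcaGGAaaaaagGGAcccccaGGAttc
For the receptors the 45 bases around the metal ion-dependent adhesion site are given, which binds the ion needed for ligand contact, with the codons of its aspartate and 2 serines in capitals.
Antxr1 (chr6:87312370-87335316, minus strand, exons 1 and 2): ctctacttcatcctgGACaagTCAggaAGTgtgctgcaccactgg
Antxr2 (chr5:98029631-98030417, minus strand, exons 1 and 2): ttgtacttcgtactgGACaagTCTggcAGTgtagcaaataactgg

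In these models the collagenous stretch took 320 of 1025 residues in the *Col6a1* protein, 353 of 1034 in *Col6a2*, 354 of 2677 in *Col6a3* and 351 of 2265 in *Col6a6*. The triple-helical part was thus of similar length in the 4 chains, and α3 and α6 were longer on both sides of it. Before it they had 1418 and 1381 residues, against 246 in α1 and 258 in α2, and after it 905 and 533 residues, against 459 and 423. The integrin-binding triplet Arg-Gly-Asp occurred in this stretch 3 times in *Col6a1*, 5 times in *Col6a2*, 5 times in *Col6a3* and 1 time in *Col6a6*. Between aligned proteins 57.5% of residues were identical for *Antxr1* and *Antxr2*, 39.9% for *Col6a1* and *Col6a2*, and between 33.5% and 35.3% for the other pairs of chains.

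*Col6a1* (ENSMUSG00000001119) lies on chromosome 10, 76708792 to 76726168, and *Col6a2* (ENSMUSG00000020241) on the same strand of the same chromosome, 76595762 to 76623630. The neighbours are 85161 bases apart, with 1 gene, *Gm35608*, between them. *Col6a3* (ENSMUSG00000048126) lies on chromosome 1, 90765923 to 90843971, *Col6a6* (ENSMUSG00000043719) on chromosome 9, 105687809 to 105828160, *Antxr1* (ENSMUSG00000033420) on chromosome 6, 87133853 to 87335821, and *Antxr2* (ENSMUSG00000029338) on chromosome 5, 97882783 to 98031043. All 6 are on the minus strand. No member shared an exon base with a gene on its own strand, and the 2 genes that overlapped member exons on the other strand had 0 reads in every library.

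The libraries held between 26790075 and 50368796 reads on genes. The targeted gene was checked first. *Mustn1* had 12.6, 16.8 and 13.1 CPM (counts per 1e6 normalized reads) in HET mice 1 to 3 and 23.1, 29.0 and 30.5 CPM in WT mice 1 to 3, so that no HET mouse reached the lowest WT mouse, as the genotype labels would have it. The log2 fold change was −0.96 ± 0.15 (SE), and the Benjamini-Hochberg adjusted p of the quasi-likelihood test in edgeR was 0.0452. The sex label did not match the reads. The mice are labelled male, but each library had between 3858 and 9154 reads of *Xist*, the RNA of the inactive X chromosome, whereas *Ddx3y*, *Kdm5d*, *Uty* and *Eif2s3y*, which lie on the Y chromosome, summed to 0 to 12 reads. This held for all 6 libraries. The 10 myofiber markers, *Acta1* and *Myh7* among them, summed to between 93073 and 105884 CPM in HET and between 99190 and 100969 CPM in WT mice.

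The chains α1, α2 and α3 and both receptors were higher in every HET mouse than in any WT mouse, whereas the rare α6 chain overlapped between genotypes. The fold changes between the groups were 1.68 to 1.94 for these 3 chains and 1.41 to 1.5 for the receptors. Of the 6 members, 1 passed an adjusted p of 0.05, *Col6a2*. Over all 14696 genes tested, 0.143% were called higher. Before adjustment 5 of the 6 members had a p under 0.05 and were higher, and 5.76% of all genes did. In 5 of 6 members the lowest HET mouse was above the highest WT mouse, which was so in 7.55% of all genes tested. The median log2 fold change was 0.67 for the members and −0.02 for all genes. With DESeq2's Wald test in place of edgeR, 4 members were called (*Col6a1*, *Col6a2*, *Col6a3* and *Antxr1*), beside 1.48% of all genes. In edgeR without a filter on low counts 5 were called (these 4 and *Antxr2*), beside 1.33%. There the adjusted p of *Col6a2* was 4.73e-17 at a log2 fold change of 0.97, against 0.0493 and 0.96 with the filter. The count was 0 with RLE factors, at least 10 reads in every library, limma-voom, non-robust dispersion, or the length or GC trend removed. In these settings 0.0204% to 0.149% of all genes were called higher. The remaining alternatives gave 0 to 3 members and called 0% to 0.776% of all genes higher. The settings that gave 3 members called 0.776% and 0.64%. In bulk RNA, more cells of a type and more RNA per cell cannot be told apart, nor can fewer cells and less RNA.

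**Figure D1:**
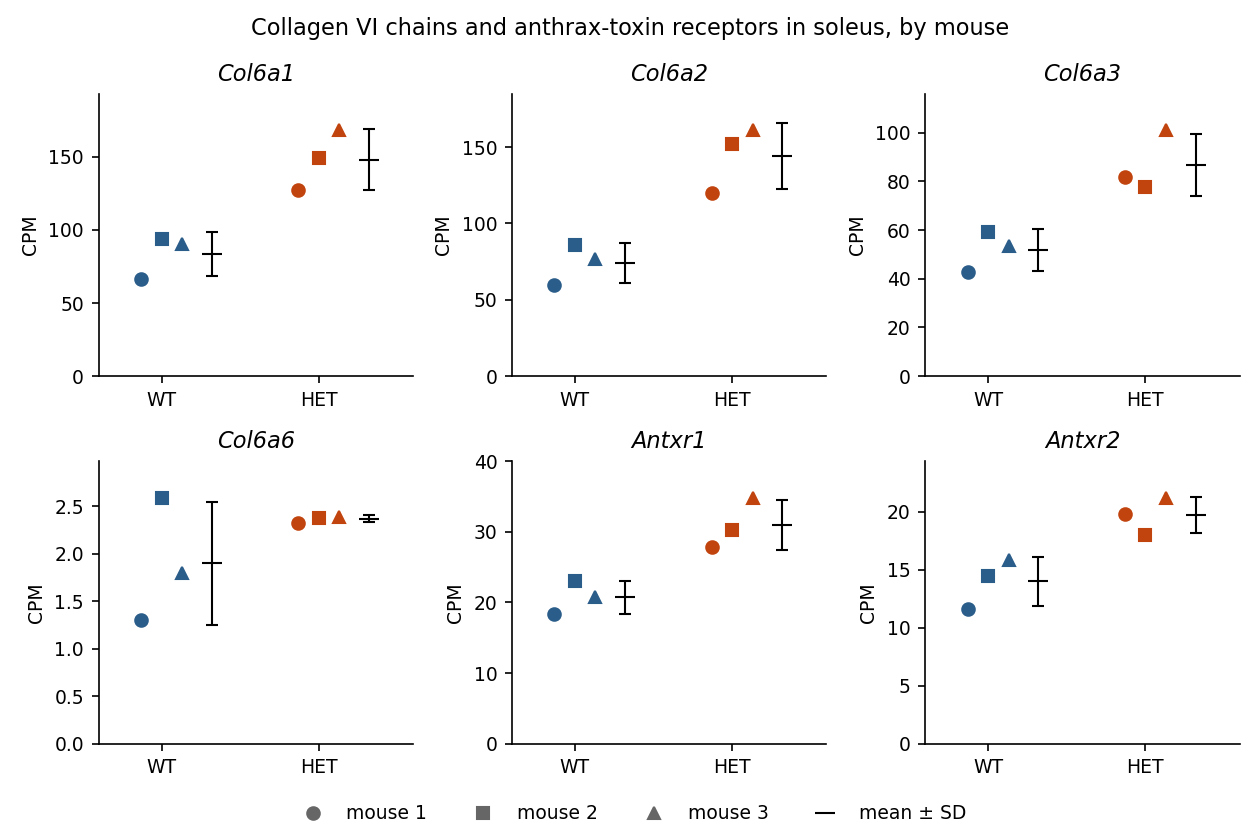
Normalized counts in CPM (vertical axis, from 0) of each of the 6 genes in 3 WT mice (blue) and 3 HET mice (orange). Symbols mark the mouse number and black bars the mean ± SD. In 5 panels the 3 HET mice sit above the 3 WT mice, and for *Col6a6* WT mouse 2 is the highest of the 6.

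*Col6a1*, which encodes the α1 chain that every collagen VI monomer needs, had 127, 149 and 168 CPM in HET mice 1 to 3 and 66.3, 93.9 and 90.4 CPM in WT mice 1 to 3. These rest on between 1981 and 7376 reads per library. The groups did not overlap, and the lowest mouse was WT mouse 1. The means were 148 ± 20.6 CPM (SD, n = 3) in HET and 83.5 ± 15 CPM (SD, n = 3) in WT mice, and the log2 fold change was 0.82 ± 0.15 (SE), with an edgeR adjusted p of 0.0785. This missed the threshold. It passed with an edgeR adjusted p of 0.0493 when WT mouse 3 was left out. With any other mouse left out it missed, with an adjusted p between 0.121 and 0.343. Of 11 other settings, 4 passed.

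*Col6a2*, which encodes the α2 chain, had 120, 152 and 161 CPM in HET mice 1 to 3 and 60, 86.1 and 76.5 CPM in WT mice 1 to 3. Its mice were ordered within each genotype as for *Col6a1*. HET averaged 144 ± 21.6 CPM (SD, n = 3) and WT 74.2 ± 13.2 CPM (SD, n = 3). The log2 fold change was 0.96 ± 0.15 (SE), with an edgeR adjusted p of 0.0493. This fold change was the largest of the 6 and above that of 97.7% of all genes tested. The call lay close to the threshold. It was lost when any mouse other than WT mouse 3 was left out, with an adjusted p between 0.0654 and 0.289 and a log2 fold change between 0.83 and 1.08.

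*Col6a3*, which encodes the long α3 chain, had 81.7, 77.6 and 101 CPM in HET mice 1 to 3 and 42.6, 59.4 and 53.6 CPM in WT mice 1 to 3. The groups did not overlap, and here HET mouse 2 and not HET mouse 1 was the lowest of its genotype. HET averaged 86.9 ± 12.8 CPM (SD, n = 3) and WT 51.9 ± 8.55 CPM (SD, n = 3). The log2 fold change was 0.74 ± 0.14 (SE), with an edgeR adjusted p of 0.0907.

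*Col6a6*, which encodes a chain that can stand in for α3, was read rarely, between 39 and 105 times per library. It had 2.32, 2.38 and 2.39 CPM in HET mice 1 to 3 and 1.30, 2.59 and 1.80 CPM in WT mice 1 to 3. The HET mice lay close together and WT mouse 2 was above them all, so the groups overlapped. The means were 2.37 ± 0.0377 CPM (SD, n = 3) and 1.90 ± 0.648 CPM (SD, n = 3), with a log2 fold change of 0.32 ± 0.26 (SE), with an edgeR adjusted p of 0.872. The value rested on single WT mice, since it was 0.59 without WT mouse 2 and 0.12 without WT mouse 1.

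The other genes of the family had few reads. *Col6a4* had between 0 and 4 reads per library and *Antxrl*, a gene related to the receptors, between 0 and 2. *Col6a5*, the remaining α3-like chain, had 16, 39 and 5 reads in HET mice 1 to 3 and 0, 2 and 7 in WT mice 1 to 3. These 3 did not pass the filter and were not tested.

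*Antxr1*, also known as tumor endothelial marker 8, had 27.9, 30.3 and 34.8 CPM in HET mice 1 to 3 and 18.3, 23.1 and 20.7 CPM in WT mice 1 to 3. Each HET mouse was above each WT mouse, and the order of the mice was that of *Col6a1*. HET averaged 31.0 ± 3.51 CPM (SD, n = 3) and WT 20.7 ± 2.40 CPM (SD, n = 3), a log2 fold change of 0.59 ± 0.12 (SE), with an edgeR adjusted p of 0.108.

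*Antxr2*, also known as capillary morphogenesis gene 2, had 19.8, 18.0 and 21.2 CPM in HET mice 1 to 3 and 11.6, 14.5 and 15.8 CPM in WT mice 1 to 3. The groups did not overlap, with HET mouse 2 the lowest of its genotype and WT mouse 1 the lowest of all. HET averaged 19.7 ± 1.57 CPM (SD, n = 3) and WT 14.0 ± 2.11 CPM (SD, n = 3), a log2 fold change of 0.49 ± 0.13 (SE), with an edgeR adjusted p of 0.239.

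**Figure D2:**
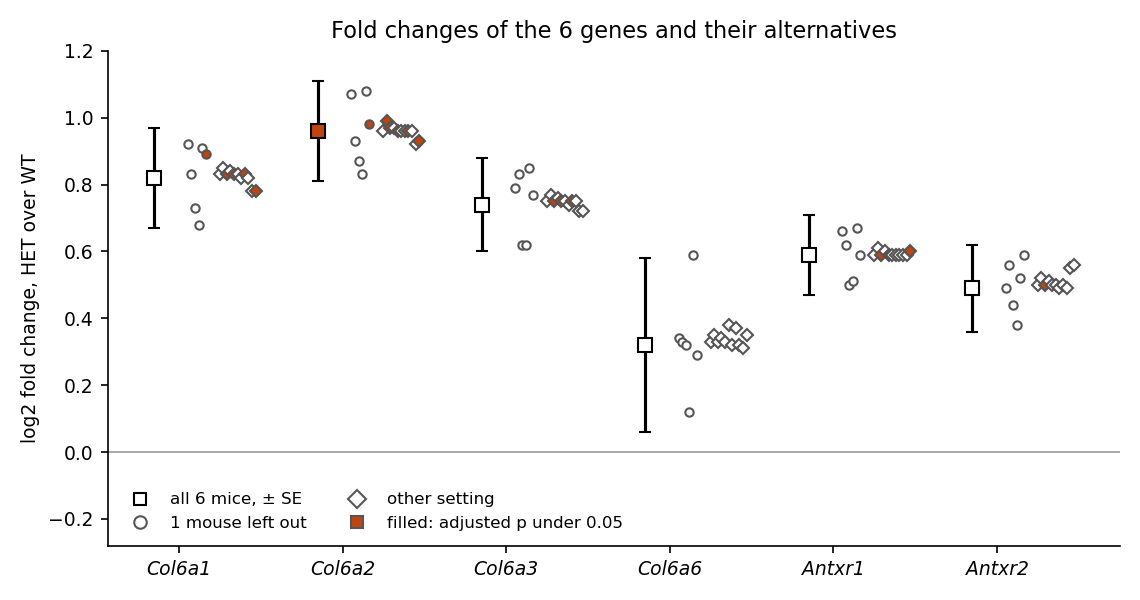
Log2 fold change of HET over WT (vertical axis) of the 6 genes, with all 6 mice and its standard error (squares), with 1 mouse left out (circles) and under other settings (diamonds). Filled symbols have an adjusted p under 0.05, and every symbol lies above 0, with *Col6a6* ranging from 0.12 to 0.59.

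Levels can be set beside each other between genes only per length. By the length of all annotated exons, the order was the same in both genotypes: *Col6a1*, *Col6a2*, *Col6a3*, the receptors and last *Col6a6*. In WT mice the levels were 19.1 ± 3.43 CPM per kb (SD, n = 3) for *Col6a1*, 8.91 ± 1.58 for *Col6a2*, 4.34 ± 0.715 for *Col6a3*, 2.17 ± 0.251 for *Antxr1*, 2.10 ± 0.318 for *Antxr2* and 0.207 ± 0.0707 for *Col6a6*. The receptors are neighbours in this order that differed by less than the SD between mice. In HET mice the levels were 33.8 ± 4.71, 17.3 ± 2.59, 7.27 ± 1.07, 3.25 ± 0.368, 2.96 ± 0.237 and 0.258 ± 0.00412 CPM per kb in the same order of genes.

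The order of the first pair depended on the length used. The exons of *Col6a2* cover 8326 bases but its principal transcript has 3949, whereas *Col6a1* has 4380 and 4100. Per principal transcript length, a scale added after the data were seen, *Col6a1* and *Col6a2* had 20.4 ± 3.67 and 18.8 ± 3.34 CPM per kb (SD, n = 3) in WT mice and 36.1 ± 5.03 and 36.5 ± 5.46 in HET mice, within the SD of each other. On this scale the receptors separated, with 3.94 ± 0.456 CPM per kb for *Antxr1* and 2.47 ± 0.374 for *Antxr2* in WT mice. *Col6a3* followed with 5.77 ± 0.95 and *Col6a6* stayed the lowest with 0.216 ± 0.0738.

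**Figure D3:**
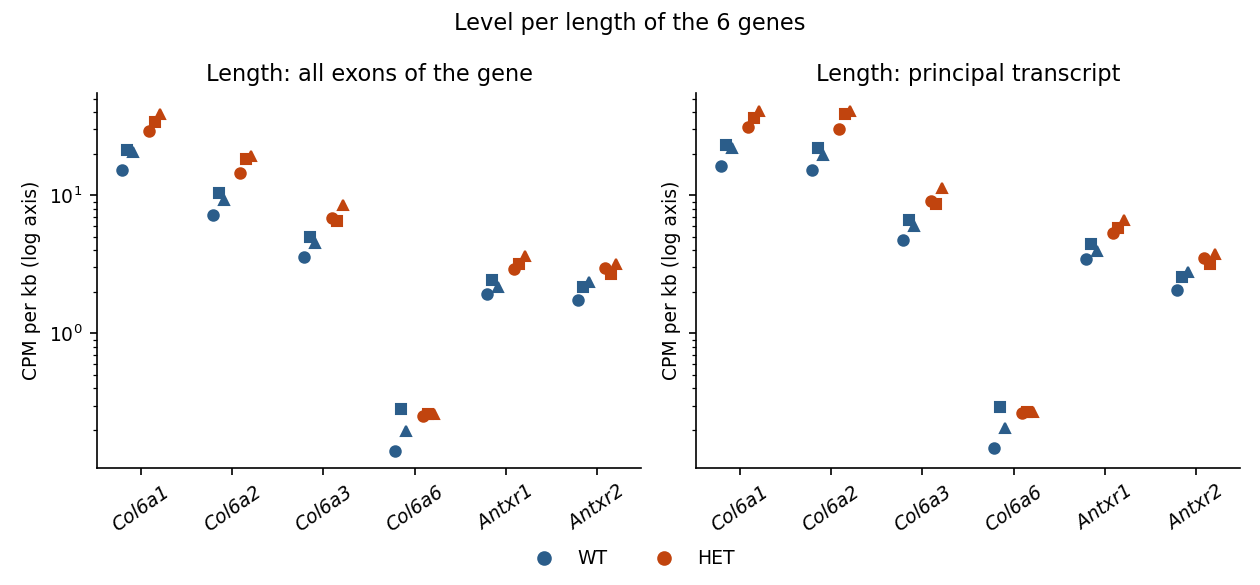
Levels in CPM per kb (log axis) of the 6 genes in WT (blue) and HET mice (orange), divided by the length of all exons (left) or of the principal transcript (right), with 1 symbol shape per mouse number. *Col6a1* and *Col6a2* are apart on the left and overlap on the right, and *Col6a6* is the lowest in both.

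Within a mouse, the ratio of 2 genes does not depend on how libraries are scaled. The reads of *Col6a2* to those of *Col6a1* were 0.944, 1.02 and 0.956 to 1 in HET mice 1 to 3 and 0.906, 0.917 and 0.846 in WT mice 1 to 3. HET mice were above WT mice, with a difference of 0.13 on the log2 scale (standard error 0.05). The reads of *Antxr1* to those of *Col6a1* were 0.220, 0.203 and 0.207 in HET mice 1 to 3 and 0.276, 0.246 and 0.229 in WT mice 1 to 3, lower in every HET mouse, with a log2 difference of −0.25 (standard error 0.09). For *Col6a6* to *Col6a1* the log2 difference was −0.46 (standard error 0.19), also with HET below WT and no overlap, and it was −0.30 without WT mouse 2. For each of these 3 ratios the two-sided exact permutation test gave p = 0.1, the smallest that 3 mice against 3 allow, and an adjusted p of 0.167 over the 5 ratios tested.

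The other 2 ratios overlapped between genotypes. *Col6a3* to *Col6a1* was 0.644, 0.521 and 0.604 in HET and 0.643, 0.633 and 0.593 in WT mice 1 to 3 (log2 difference −0.08, standard error 0.10, exact permutation p = 0.7, adjusted p = 0.7). *Antxr2* to *Antxr1* was 0.710, 0.595 and 0.608 in HET and 0.636, 0.628 and 0.763 in WT mice 1 to 3 (log2 difference −0.08, standard error 0.12, exact permutation p = 0.5, adjusted p = 0.625). These differences turned to 0.00 without HET mouse 2 and to 0.01 without WT mouse 3. The 4 chains together took 0.0331%, 0.0381% and 0.0433% of the normalized library in HET mice 1 to 3 and 0.0170%, 0.0242% and 0.0222% in WT mice 1 to 3.

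The profile over the 6 mice was compared on log2 CPM centred on each gene's mean, as the root mean square difference from the mean profile of *Col6a1*, *Col6a2* and *Col6a3*. That profile was 0.24, 0.41 and 0.62 in HET mice 1 to 3 and −0.72, −0.22 and −0.34 in WT mice 1 to 3. Of 14696 genes, *Antxr1* ranked 52nd in likeness with a difference of 0.147, *Antxr2* 177th with 0.212 and *Col6a6* 647th with 0.298, where the median gene had 0.506. The 3 chains, which define the profile, ranked 1st (*Col6a1*, 0.0308), 6th (*Col6a2*, 0.0794) and 8th (*Col6a3*, 0.0883). Apart from the 3 chains themselves, the nearest 5 genes were *Mob3b* (0.0591), *C1qtnf6* (0.0658), *Cacna1g* (0.0665), *Pcolce* (0.0725), which encodes the procollagen C-endopeptidase enhancer, and *Adcy7* (0.0817). None of these 5 passed the threshold in edgeR's test, with adjusted p between 0.131 and 0.356. Taken in pairs, *Col6a3* differed by 0.114 from *Antxr1*, by 0.159 from *Antxr2*, by 0.106 from *Col6a1* and by 0.165 from *Col6a2*. Both receptors were thus nearer to *Col6a3* than *Col6a2* was. Of 14695 other genes, *Col6a1* ranked 23rd in nearness to *Col6a3*, *Antxr1* 30th, *Antxr2* 83rd and *Col6a2* 95th. *Col6a1* and *Col6a2* differed by 0.082, and each was nearer to *Col6a3* than to either receptor. *Antxr1* and *Antxr2* differed by 0.151 and 0.21 from *Col6a1* and by 0.209 and 0.284 from *Col6a2*. The points share 6 libraries and the genotype difference, so likeness here includes that difference.

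**Figure D4:**
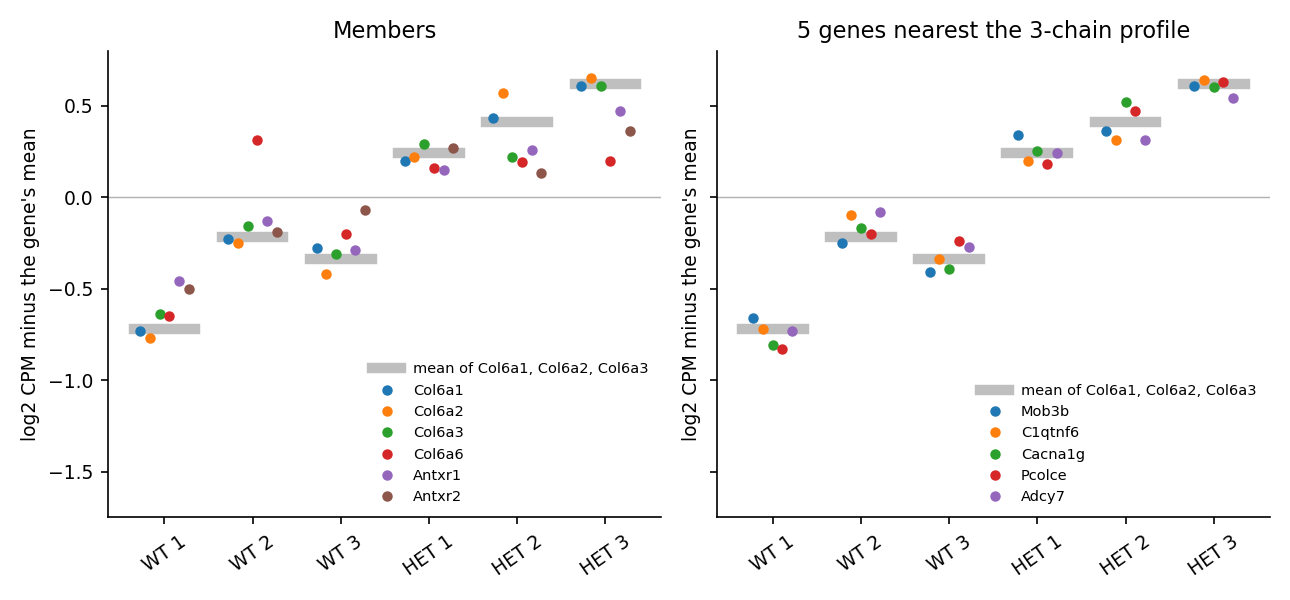
Log2 CPM minus the gene's own mean (vertical axis) in each of the 6 mice (horizontal axis) for the 6 members (left) and the 5 genes nearest to the mean profile of *Col6a1*, *Col6a2* and *Col6a3* (right). Grey bars are that mean profile, lowest at −0.72 in WT mouse 1 and highest at 0.62 in HET mouse 3.

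The promoters of *Col6a1*, *Col6a2* and *Col6a3* are printed because these chains make up the common collagen VI monomer and set the profile above. They are RefSeq sequences of GRCm38.p6, 5′ to 3′, and end at the last base before both the RefSeq start and the annotated gene start. Of the 6 members, 5 had a promoter in that collection. Capitals mark a GC box (GGGCGG on either strand).
Col6a1 (chr10:76726169-76726294, minus strand): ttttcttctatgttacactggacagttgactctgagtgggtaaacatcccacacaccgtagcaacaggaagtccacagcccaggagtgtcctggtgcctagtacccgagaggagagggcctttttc
Col6a2 (chr10:76623631-76623830, minus strand): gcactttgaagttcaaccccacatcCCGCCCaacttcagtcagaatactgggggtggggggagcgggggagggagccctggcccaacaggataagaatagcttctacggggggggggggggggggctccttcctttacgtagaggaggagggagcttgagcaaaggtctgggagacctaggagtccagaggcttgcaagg
Col6a3 (chr1:90843972-90844171, minus strand): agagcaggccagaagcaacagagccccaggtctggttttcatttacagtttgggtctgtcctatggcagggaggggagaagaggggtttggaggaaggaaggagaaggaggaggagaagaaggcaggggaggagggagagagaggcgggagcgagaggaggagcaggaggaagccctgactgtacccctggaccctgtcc
In the 250 bases before the RefSeq starts, 4 motifs were searched on both strands: TATAAA, present in 12.4% of 32841 promoters, CCAAT in 33.9%, GGGCGG in 32.7% and the AP-1 site TGANTCA in 6.75%. *Col6a1* held an AP-1 site 90 to 84 bases before its RefSeq start, which lies in the annotated first exon and is not printed. *Col6a2* held a GC box 175 to 170 bases before its upstream start and 3 more before a second RefSeq start inside the annotated gene, which are not printed, and *Col6a3* held none of the 4. *Col6a6* held 2 GC boxes, and *Antxr2* held 2 GC boxes and a TATA box. No motif was shared by the 3 chains in these windows.

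Genes for matrix proteins that bind or neighbour collagen VI had log2 fold changes above 0, none of which passed the test. Of 12 genes 11 were tested, all 11 had a log2 fold change above 0, as had 6702 of all 14696 genes tested, and 0 passed in either direction. The median was 0.61. In 6 of them each HET mouse was above each WT mouse, beside 7.55% of all genes. The lowest value was 0.17, for *Col4a1*, a basement membrane chain with 374, 464 and 530 CPM in HET and 361, 521 and 335 CPM in WT mice. The highest was 1.73 ± 0.49 (SE), with an edgeR adjusted p of 0.267 for *Matn3*, a matrilin, with 21, 16 and 46 reads in HET and 3, 5 and 17 in WT mice. *Matn1* was not tested, with between 0 and 3 reads per library.

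The other collagen receptors, that is the collagen-binding integrins, the discoidin domain receptors and the proteoglycan *Cspg4*, had a median log2 fold change of 0.15. Of 8 genes 7 were above 0 and 0 passed. The range ran from −0.11 (standard error 0.12) for *Itga1*, the integrin α1 chain, to 1.22 ± 0.40 (SE), with an edgeR adjusted p of 0.385 for *Itga2*, which had between 5 and 31 reads per library. Genes linked to the anthrax-toxin receptors gave a similar picture, with 6 of 8 above 0, 0 passing and a median of 0.20. Among them *Lrp6*, a Wnt co-receptor, was lowest with −0.10 (standard error 0.09) and *Mmp2*, a gelatinase, was highest with 0.77 ± 0.18 (SE), with an edgeR adjusted p of 0.198, at 62.1, 76.8 and 81.7 CPM in HET and 31.8, 43.2 and 53.9 CPM in WT mice.

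The enzymes and chaperones that fold and export collagen had a median of 0.23. Of 14 genes 12 were above 0 and 0 passed, from −0.06 for *P4ha2* to 1.21 (edgeR adjusted p = 0.442) for *P4ha3*, which are prolyl 4-hydroxylase subunits. *P4ha3* had between 4 and 34 reads per library. The autophagy and mitochondrial genes studied in collagen VI-deficient muscle lay near 0, with a median of −0.04, 2 of 7 above 0 and 0 passing. *Bnip3* and *Map1lc3b* were lowest with −0.14 and *Map1lc3a* highest with 0.02 (standard error 0.14). Of the other collagen genes 32 of 38 were tested, with 28 above 0, a median of 0.58 and 0 passing. In 18 of these 32 each HET mouse was above each WT mouse, beside 7.55% of all genes tested.

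Most markers of fibroblasts, tenocytes and macrophages had log2 fold changes above 0, and few of them passed the test outside the macrophage list. Over all genes tested, 0.143% were called higher. All 13 fibroblast markers were above 0 (median 0.60) and 1 passed the test, *Pi16*, with a log2 fold change of 1.06 ± 0.15 (SE), with an edgeR adjusted p of 0.0452. In 8 of the 13, beside 7.55% of all genes tested, each HET mouse was above each WT mouse, and the other fibroblast markers overlapped. The sum of all 13 was 1115 to 1205 CPM in HET and 554 to 903 CPM in WT mice. Of this, *Gsn* alone made up 635 to 743 CPM in HET and 261 to 550 CPM in WT mice. All 10 tenocyte markers were above 0 (median 1.44) and 0 passed. The lowest was *Scx*, with 0.15 (standard error 0.15) and overlapping groups. In the other 9 each HET mouse was above each WT mouse. The sum was 388 to 713 CPM in HET and 124 to 313 CPM in WT mice. Of 15 macrophage markers 14 were above 0 (median 1.29) and 5 passed (*Adgre1*, *C1qa*, *C1qb*, *Csf1r* and *Lyz2*), with a sum of 101 to 144 CPM in HET and 56.4 to 66.5 CPM in WT mice. In 12 of the 15 each HET mouse was above each WT mouse. No marker in these 3 lists was at 0 reads in any library. The part of these cells in the members' differences was not tested.

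In none of the remaining marker lists did the sums of all HET mice lie above those of all WT mice. For pericyte and satellite cell markers the sums of all HET mice lay below those of all WT mice. Of 6 adipocyte markers 5 were above 0 and 0 passed, with a median log2 fold change of 1.07. Their sums overlapped, at 293 to 474 CPM in HET and 284 to 318 CPM in WT mice, and most of each sum was *Fabp4*, whose log2 fold change was −0.13. Endothelial markers summed to 624 to 765 CPM in HET and 639 to 811 CPM in WT mice, with 4 of 9 above 0, and smooth muscle markers to 276 to 347 and 259 to 316 CPM, with 5 of 7 above 0. Pericyte markers were 957 to 1123 CPM in HET and 1150 to 1261 CPM in WT mice, with 2 of 7 above 0 and a median of −0.04. Of the pericyte sum, *Rgs5* alone made up 494 to 642 CPM in HET and 666 to 760 CPM in WT mice. It was the 1 pericyte marker in which each HET mouse was below each WT mouse, beside 884 of all 14696 genes tested. Satellite cell markers were 15.6 to 17.4 and 19.3 to 22.9 CPM, with 0 of 4 above 0. Schwann cell markers were 41.7 to 62.6 and 35.8 to 68.5 CPM, with 3 of 5 above 0. None of these lists held a gene past the threshold, and 2 of 10 myofiber markers were above 0.

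**Figure D5:**
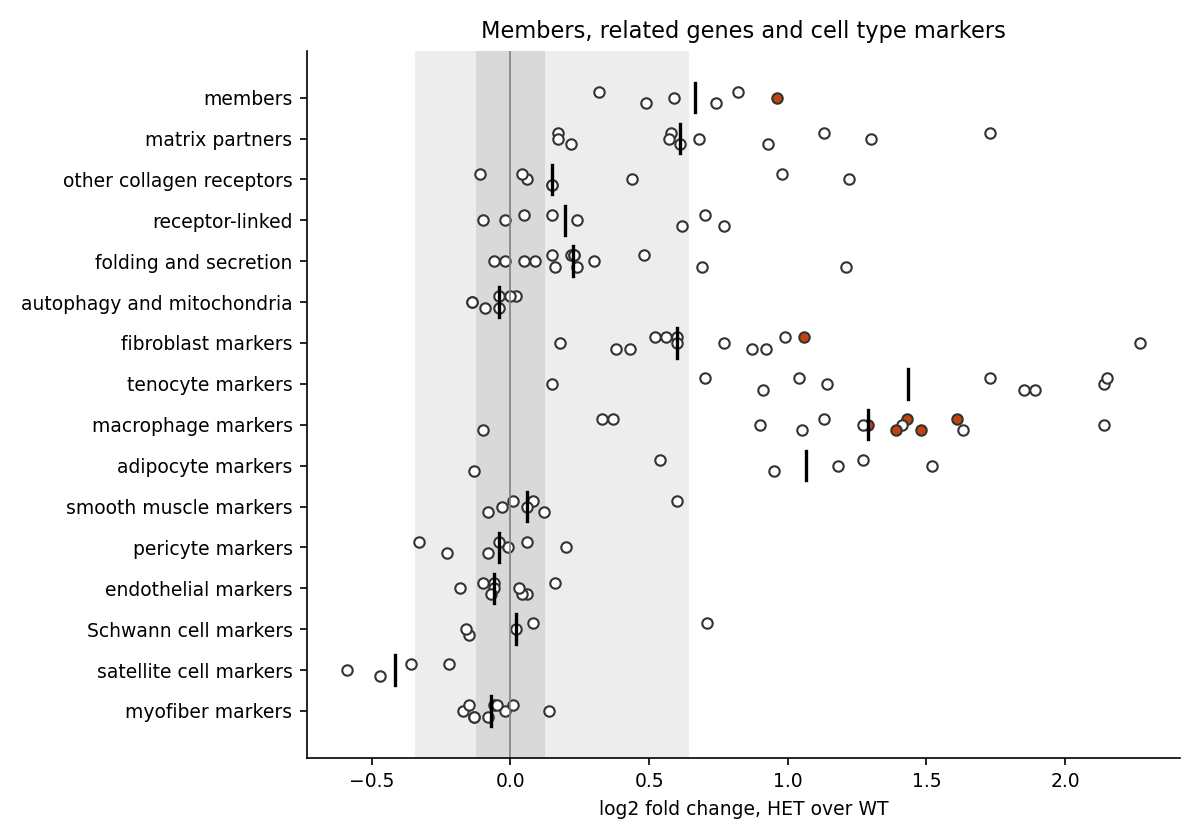
Log2 fold change of HET over WT (horizontal axis) of each tested gene in the members, related gene lists and cell type marker lists (rows). Filled points have an adjusted p under 0.05, black bars are list medians, and grey bands hold the middle 50% and 90% of all genes tested. The member median of 0.67 lies near those of the matrix partners (0.61) and fibroblast markers (0.60), and below those of the tenocyte (1.44) and macrophage markers (1.29).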

How the data were processed

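RNA of 3 HET and 3 WT soleus muscles was analysed. Per the labels, the authors used STAR 2.7.3a, featureCounts 2.0.3 and build GRCm38.p6, and deposited raw counts per gene, reverse-stranded, with reads aligning to several places left out. The deposited normalized signal is the raw count divided by a DESeq2 size factor between 0.773 and 1.42 and was used for the list of genes. The authors' table of their own fold changes and p-values was not used. Column matching left 0 columns without a sample.

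From the counts, CPM with TMM factors (0.965 to 1.05) were computed, and 14696 genes passing filterByExpr (minimum count 10) were tested with edgeR 4.0.16 in R 4.3.3 (robust quasi-likelihood, genotype as the only term, two-sided, Benjamini-Hochberg adjusted, threshold 0.05). edgeR was used as the main test and the study's tool, DESeq2 1.42.0, as an alternative, with limma 3.58.1 as another. Standard errors (SE) of edgeR log2 fold changes were obtained by dividing the fold change by the root of its F statistic. Those of the ratio differences were the root of the summed genotype variances of the log2 ratio, each divided by its number of mice. The common biological variation was 0.143 as a coefficient. Log2 CPM used a prior count of 2. Gene lengths are those of the count table, and gene models come from GENCODE M21, which shares 51633 of 51912 genes and the coordinates of 94.1% of them. Genes with few reads, such as *Col6a6*, have the least precise values.

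The members and lists were chosen with earlier results of these data known. Named singly are the members, genes of a pathway list past the threshold or at the ends of its range, markers past the threshold, the 5 genes nearest the 3-chain profile, family genes with few reads and the label checks. The markers past the threshold, *Scx*, *Gsn*, *Fabp4*, *Rgs5*, *Matn1* and *Gm35608* were named after their values were seen. The fits were tested on simulated data. Alternatives were other scaling factors, filters and tools, removal of length or GC trends, the replicate block and each mouse left out. Tables and plots used Python 3.11.15, pandas 2.3.3, SciPy 1.17.1, Biopython 1.88 and matplotlib 3.10.9.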

Additional observations from a re-analysis of the deposited data

How the results depend on the processing

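Every one of the 6 members kept a log2 fold change above 0 in all 17 alternatives, but the number called varied. With all 6 mice and the chosen settings it was 1, and 0 were called lower in every alternative. It was 0 with RLE factors, at least 10 reads in every library, limma-voom, non-robust dispersion, the length trend removed or the GC trend removed, where *Col6a2* had log2 fold changes of 0.96, 0.97, 0.96, 0.96, 0.96 and 0.92 and adjusted p between 0.0569 and 0.117. It was 5 without a filter on low counts, with 0.83 for *Col6a1*, 0.75 for *Col6a3*, 0.59 for *Antxr1* and 0.50 for *Antxr2*. The edgeR adjusted p of *Col6a2* was then 4.73e-17, against 0.0493 with the filter. The number called was 4 with DESeq2, with 0.83 for *Col6a1*, 0.75 for *Col6a3* and 0.59 for *Antxr1*. The cause was not tested. With 1 mouse left out it was 0 to 2, with log2 fold changes of 0.68 to 0.92 for *Col6a1*, 0.83 to 1.08 for *Col6a2*, 0.62 to 0.85 for *Col6a3*, 0.50 to 0.67 for *Antxr1* and 0.38 to 0.59 for *Antxr2*. Leaving mice out moved the log2 difference of *Col6a3* to *Col6a1* between −0.15 and 0.00 and that of *Antxr2* to *Antxr1* between −0.16 and 0.01, and so turned their sign. The other 3 ratios kept theirs, with the largest move in *Col6a6* to *Col6a1*, from −0.46 to −0.30 without WT mouse 2.

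The deviations of same-numbered mice from their genotype means had r = 0.203 over 14696 genes for number 1, −0.006 for number 2 and −0.035 for number 3. Since only number 1 showed a shared deviation, the numbers were not taken as a pairing. With the replicate block 3 members were called, with log2 fold changes of 0.83 for *Col6a1*, 0.96 for *Col6a2* and 0.75 for *Col6a3*, and with the block after the GC trend was removed 3 were called, with 0.78 for *Col6a1*, 0.93 for *Col6a2* and 0.60 for *Antxr1*. The block left the ratio differences at 0.13, −0.08, −0.46, −0.25 and −0.08.

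Over all genes, 21 were called higher and 1 lower, against 218 and 8 with DESeq2, 386 and 18 without a filter, 114 and 2 with the block, 94 and 2 with the block and GC trend, 6 and 1 with the GC trend, 6 and 0 with non-robust dispersion, 3 and 0 with limma-voom, and 0 to 77 higher with a mouse left out. Per principal transcript length, chosen after seeing the data, the level of *Col6a2* was 0.924 times that of *Col6a1* in WT mice, against 0.468 per length of all exons. With 3 mice a genotype, the exact test of a ratio cannot go below 0.1.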
